A study of Saccharomyces cerevisiae BY4741 with 238 samples.

Results

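The general stress marker genes are a set of 10 transcripts of budding yeast taken by gene symbol: HSP12, CTT1, DDR2, SPI1, YGP1, HOR7, RTN2, SPG4, MSC1 and PNC1. They are 10 of the 6717 features in the expression table, and all 10 passed the filter that left 5015 features for testing. The 10 genes and the gene lists used below were chosen with earlier results of these data known. Counts of called genes set beside the share of all features are therefore descriptions and not tests. Transcript levels were measured in 238 wells of Saccharomyces cerevisiae strain BY4741, a laboratory haploid of mating type a, grown in YPD in grids of 4 growth inhibitors given alone or in pairs and re-inoculated by a robot before RNA was taken. Polyadenylated RNA was sequenced from 1 well per library with primers that carry molecular identifiers, so the reads lie near the 3' ends of transcripts and the values are not divided by transcript length. All cells carry the same genotype, and the wells of a grid were started from an overnight culture, so p-values measure the spread between wells, which may be technical.

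The treated wells fall into single-drug and mixture groups. Single-drug wells at a relative growth rate of 0.35 to 0.66 and a final optical density (OD600) below 0.9 are called growth-matched: 10 wells with cycloheximide (0.0522 to 0.0764 µg/ml), 9 with LiCl (9235 to 15730 µg/ml), 11 with myriocin (0.349 to 0.510 µg/ml) and 11 with rapamycin (0.00396 to 0.00662 µg/ml). A further 13, 19, 14 and 19 wells held these drugs at other growth rates or densities. Mixtures at reduced growth numbered 22 wells of cycloheximide with LiCl, 20 of cycloheximide with myriocin, 19 of cycloheximide with rapamycin, 26 of LiCl with myriocin, 18 of LiCl with rapamycin and 16 of myriocin with rapamycin. The drug-free wells were 3 at high final density (OD600 1.38 to 1.44) and 8 at low density (0.553 to 0.780). Cycloheximide blocks the elongation step of translation, LiCl is a toxic salt, myriocin blocks the enzyme that starts sphingolipid synthesis, and rapamycin acts on TOR complex 1, a nutrient-sensing kinase complex.

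Each well belongs to 1 of 6 experiments, the grid of a drug pair, written here as CL, CM, CR, LM, LR and MR from the initials of the drugs. Within an experiment the labelled ratio of absolute to relative growth rate takes 2 values, and the wells with the higher and the lower ratio are called the higher set and the lower set. All 121 mixture wells lie in the higher set and all 8 low-density drug-free wells in the lower set. Values are normalised signal on a scale shared by all libraries. Changes are log2(value + 1) differences with their SE from limma fits. Drugs and mixtures were compared in 1 fit with terms for experiment and set. Unless stated, the drug-free density fit, the dose gradients and the dose-share slopes have neither term. Well pairs were fitted as differences within pairs. A gene is called when its Benjamini-Hochberg adjusted p over 5015 features is below 0.05 and the change is at least 1.5-fold.

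As background, the general stress response of budding yeast is driven in large part by the zinc finger factors Msn2 and Msn4. They bind the stress response element, whose core is AGGGG, and are held out of the nucleus by protein kinase A and, less directly, by TOR complex 1 signalling while nutrients are plentiful. HSP12 encodes a small membrane-associated heat shock protein and CTT1 the cytosolic catalase. DDR2 and HOR7 are paralogs that encode small stress proteins, the first described as a DNA damage responsive gene and the second as a gene of hyperosmotic stress. SPI1 encodes a cell wall protein tied to weak acid resistance, and YGP1 a secreted glycoprotein related to the cell wall. RTN2 encodes a reticulon of the endoplasmic reticulum, SPG4 a protein needed for survival in stationary phase at high temperature, MSC1 a protein first described in meiotic recombination, and PNC1 the nicotinamidase that clears nicotinamide.

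The reading frames lie on 7 chromosomes of build R64, and none of the 10 overlaps another annotated gene. The AGGGG core, searched in the 500 bases before the start codon on either strand (AGGGG or CCCCT), occurred at least once before 9 of the 10 genes and at least 2 times before 7 of them. Among 6000 protein-coding genes the shares were 34.1% with at least 1 core and 8.1% with at least 2. Because the 10 genes were chosen as stress markers of the Msn2 and Msn4 type, a high share among them was likely beforehand. The comparison is a description and not a test. HSP12 had 5 cores, DDR2 and PNC1 had 4 each, CTT1 and SPI1 had 3 each, HOR7 and MSC1 had 2 each, and YGP1 and RTN2 had 1 each. SPG4 had none of these letters in its window. The windows below, from the RefSeq R64 genome, show the cores of HSP12 and CTT1, which changed most with the dose shares of mixtures with rapamycin along with SPG4, and of the paralogs DDR2 and HOR7, which moved differently under rapamycin. Each is written 5′ to 3′ toward the start codon with the core in capitals.
HSP12 (chrVI:106806-107105, plus strand): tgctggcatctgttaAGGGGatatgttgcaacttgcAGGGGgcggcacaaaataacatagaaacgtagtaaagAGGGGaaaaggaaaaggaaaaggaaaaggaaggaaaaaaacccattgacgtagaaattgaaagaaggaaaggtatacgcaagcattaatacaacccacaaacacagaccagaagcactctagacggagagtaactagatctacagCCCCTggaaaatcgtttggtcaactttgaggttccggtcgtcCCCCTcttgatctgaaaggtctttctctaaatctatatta
CTT1 (chrVII:654234-654533, plus strand): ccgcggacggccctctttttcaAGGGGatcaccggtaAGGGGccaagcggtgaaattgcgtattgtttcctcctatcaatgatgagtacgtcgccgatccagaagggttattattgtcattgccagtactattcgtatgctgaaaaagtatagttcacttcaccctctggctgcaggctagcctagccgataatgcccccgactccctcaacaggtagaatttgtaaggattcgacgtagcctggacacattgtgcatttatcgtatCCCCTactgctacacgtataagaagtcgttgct
DDR2 (chrXV:231906-232025, minus strand): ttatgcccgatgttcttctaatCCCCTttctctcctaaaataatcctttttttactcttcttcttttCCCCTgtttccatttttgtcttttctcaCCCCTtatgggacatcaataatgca
HOR7 (chrXIII:774352-774531, plus strand): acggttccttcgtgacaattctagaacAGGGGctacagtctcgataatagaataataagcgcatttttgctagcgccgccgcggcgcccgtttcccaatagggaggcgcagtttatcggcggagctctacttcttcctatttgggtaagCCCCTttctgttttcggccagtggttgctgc
In HSP12 the cores begin at -435, -414, -377, -232 and -190 relative to the start codon, and in CTT1 at -378, -363 and -133. The DDR2 window holds 3 of its 4 cores and the HOR7 window both of its cores. A letter match is a description of the window and not a binding measurement.

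The level of the stress genes without any drug depended first on the experiment. HSP12 stood at 63.7 in the low-density drug-free well of CL, at 456 and 485 in CM, 318 in CR, 909 and 1014 in LM, 137 in LR and 180 in MR. Both wells of CM and both wells of LM lay close together for HSP12, whereas the lowest and highest wells differed by 15.9-fold. CTT1 was lowest in CL (67.7) and highest in LM (257 and 293). SPG4 was 4.84 in CL and 63.3 and 167 in LM, against 9.88 to 15.2 in the other experiments. In the fit over all groups the experiment term spanned 2.57 log2 units for HSP12, 2.56 for RTN2, 2.10 for CTT1, 1.80 for SPG4, 1.80 for MSC1 and 1.64 for DDR2, against a median of 0.62 over all features. The span was smaller for SPI1 (0.82), PNC1 (0.74), YGP1 (0.60) and HOR7 (0.40). CL had the lowest fitted level for all 10 genes, and LM had the highest for 9, with LR highest for HOR7. The term had an adjusted p below 0.05 for 52.9% of all features, and experiment, inoculum and library handling cannot be told apart. Group ranges below therefore mix experiments, and within-experiment values are given where a result turns on them.

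**Figure D1:**
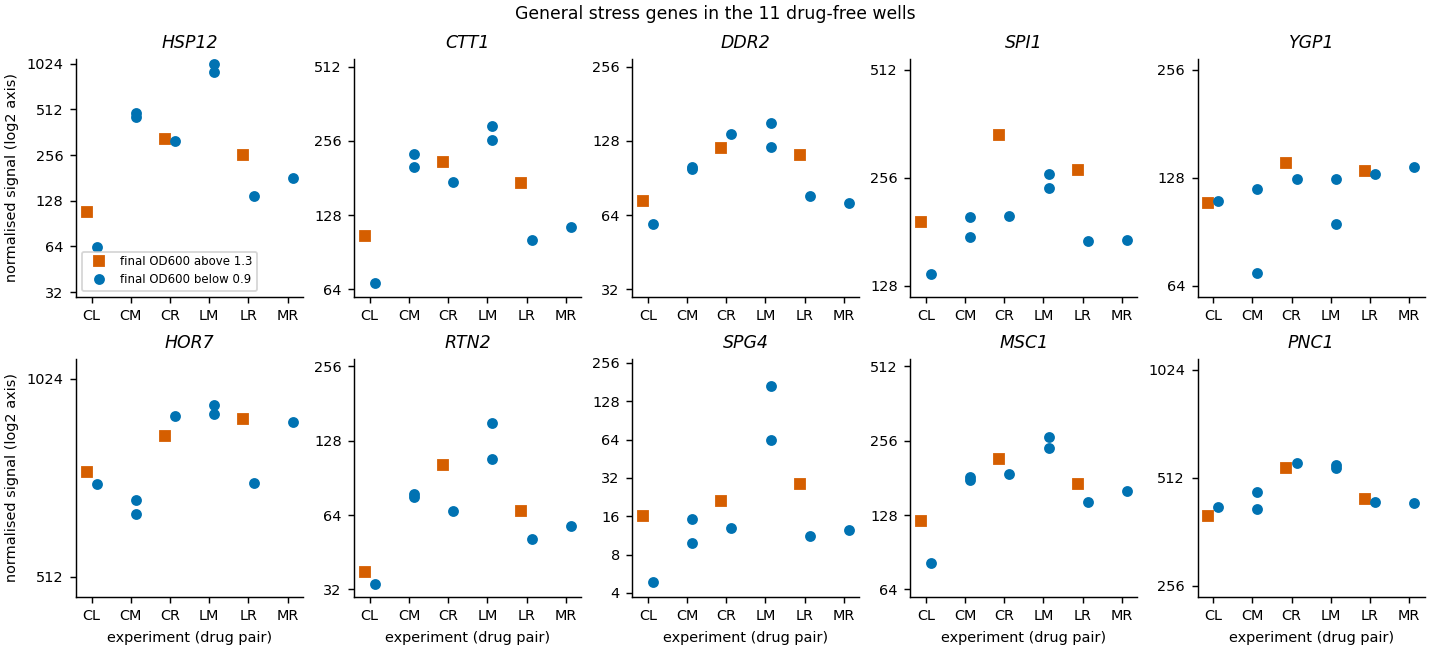
Normalised signal (log2 axis) of each of the 10 genes in the 11 drug-free wells, by experiment on the horizontal axis, with high-density wells as squares and low-density wells as circles. HSP12 ranges from 63.7 in CL to 1014 in LM among the low-density wells, and in CL, CR and LR the high-density well stands beside the low-density well of the same experiment.

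Estimated depth ran from 64843 to 2017612 reads per library, the median being 568842, and 8 libraries had under 142211 reads. 2 of these 8 are growth-matched cycloheximide wells and 2 are growth-matched rapamycin wells. The MATa genes MFA1, MFA2, STE2 and BAR1 were detected in every library, and AGA2 was at the lowest value in 1. Among MATα genes, MF(ALPHA)1 was at the lowest value in 200 libraries and STE3 in 95, but SAG1 in 13 and MF(ALPHA)2 in 7. Among meiosis genes, SPS4 was at the lowest value in 119 libraries, SPO11 in 35, IME1 in 24 and NDT80 in 3. The MATα and meiosis lists thus each held genes with signal in most libraries. The summed MATα markers ranged from 5.50 to 31.3 over the groups, and the summed meiosis markers from 8.80 to 62.9.

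Culture density was asked first, because stress genes are known to follow it. In the 3 high-density drug-free wells HSP12 was 108 in CL, 329 in CR and 257 in LR, against 63.7, 318 and 137 in the low-density wells of those experiments. SPI1, the cell wall gene, was 193.4 in CL, 336 in CR and 269 in LR at high density, against 138, 201 and 171 at low density. Both genes were higher at high density in all 3 experiments, as were CTT1, RTN2, SPG4 and MSC1. Compared over all wells without an experiment term, 0 of the 10 genes and 0% of features were called by limma, and 1 of the 10 had an unadjusted p under 0.05. HSP12 was at -0.60 ± 0.667 in that fit, which mixes wells of different experiments. With experiment as a term SPI1 was called (log2 change 0.62, adjusted p = 0.0123), and it was the only member called. The share of all features called with that term is not given here, so the call has no background beside it.

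A larger comparison set wells of the 2 growth-reference sets against each other at the same dose in the same experiment. In 23 such pairs the higher-set well was denser (median OD600 1.41, against 0.588 in the lower-set well) while both grew at no less than 0.8 of the drug-free rate. The drug-free wells of CL, CR and LR given above are among these 23 pairs, so the comparisons overlap. SPG4 was higher in the denser well in 22 of the 23 pairs, with medians of 40.2 in the denser wells and 15.6 in the sparser wells, a mean log2 difference of 1.18 ± 0.146 (adjusted p = 1.95e-08). HSP12 was also higher in 22 of 23 pairs, with medians of 409 and 248 in the denser and sparser wells and a difference of 0.60 ± 0.0877 (adjusted p = 6.78e-07). The ranges of the wells overlapped for both genes, and the shift shows within pairs. These 2 genes were the only members called, where 2.21% of all features were called.

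Another 5 members moved less than 1.5-fold at an adjusted p below 0.05. CTT1 differed by 0.55 ± 0.0706 and RTN2 by 0.55 ± 0.0918, each higher in the denser well in 22 of 23 pairs. SPI1 differed by 0.52 ± 0.0545, DDR2 by 0.38 ± 0.0769 and MSC1 by 0.36 ± 0.0542. YGP1 (-0.03 ± 0.0613), HOR7 (0.08 ± 0.0432) and PNC1 (0.04 ± 0.0484) had intervals from -0.15 to 0.09, -0.01 to 0.17 and -0.05 to 0.14. Across the 5 experiments with such pairs, HSP12 was higher in the denser well in 1 of 1 pairs of CL, 4 of 4 of CR, 7 of 7 of LR, 9 of 9 of MR and 1 of 2 of LM. The HSP12 call ended without LR (0.51, adjusted p = 0.000245), without MR (0.55, adjusted p = 0.000301) or with a pseudocount of 10 (0.58), where the difference was under 1.5-fold.

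In 20 further pairs both wells had a final OD600 below 0.9, with medians of 0.680 in the higher set and 0.662 in the lower set. No growth limit was set for these 20 pairs, and they include wells slowed by a drug. The kinds of pair thus differ in growth rate and dose as well as in density, and these cannot be told apart. None of the 10 genes was called in these pairs by limma, 0 of them had an unadjusted p under 0.05, and 0% of features were called. SPG4 differed by 0.26 ± 0.156 there and HSP12 by 0.10 ± 0.0941. The difference between the kinds of pair was itself called for SPG4 (0.91 ± 0.214, adjusted p = 0.0041), where 2.69% of features were called. It was under 1.5-fold at an adjusted p below 0.05 for RTN2 (0.56 ± 0.135), SPI1 (0.50 ± 0.0799), HSP12 (0.50 ± 0.129), CTT1 (0.49 ± 0.103) and MSC1 (0.33 ± 0.0795). Without MR the SPG4 difference was 0.92 with an adjusted p of 0.0532.

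**Figure D2:**
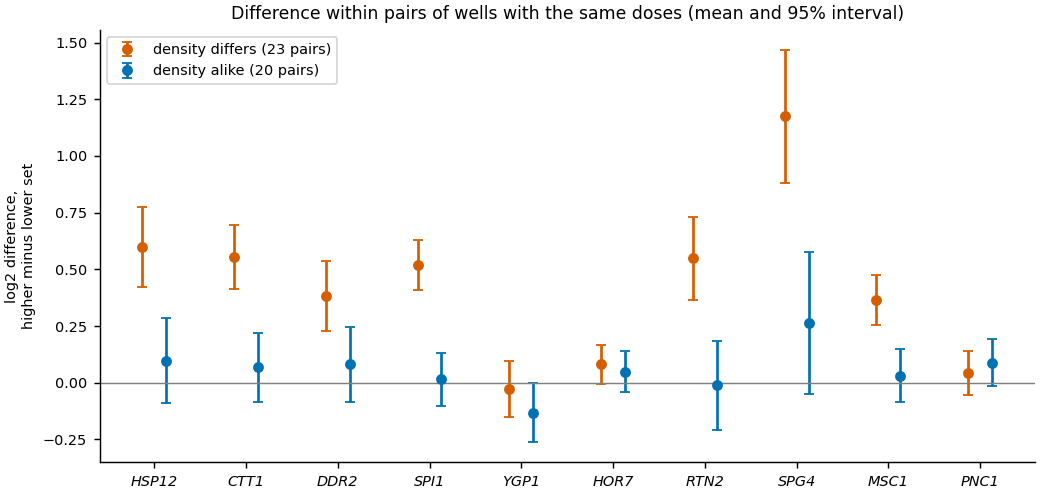
Mean log2 difference with its 95% interval, higher set minus lower set, for wells paired by experiment and dose, in 23 pairs that differ in density (orange, left) and 20 pairs of like density (blue, right). SPG4 stands at 1.18 and HSP12 at 0.60 in pairs that differ in density, while the 10 means in pairs of like density lie between -0.13 and 0.26.

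The next question was which stress genes each drug changed at a like growth rate and density. Under LiCl 6 of the 10 rose, against 6.7% of all features called higher, and the median over the 10 was 0.83, against -0.01 over all features. CTT1 reached 398 to 761 in the 5 LiCl wells of LR, against 101 in the drug-free well. In LM it stood at 1032 and 1040 with LiCl, against 257 and 293 without drug, and in CL at 127 and 174 with LiCl, against 67.7. In all 3 experiments no LiCl well overlapped a drug-free well, and the fitted change was 1.61 ± 0.288 (adjusted p = 4.93e-06). HSP12 followed with 447 to 1094 in LR, against 137 without drug, and with 203 and 306 in CL, against 63.7. In LM the wells were closer, at 1216 and 1263 with LiCl, against 909 and 1014 without drug. The fitted HSP12 change was 1.11 ± 0.287 (adjusted p = 0.00246).

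YGP1 rose by 1.05 ± 0.138 under LiCl, with 150 to 347 in the 9 LiCl wells, against 69.5 to 137 in the 8 drug-free wells. SPI1 rose by 0.98 ± 0.12, with 234 to 556 in LiCl wells and 138 to 263 in drug-free wells. RTN2 rose by 0.97 ± 0.245 and MSC1 by 0.70 ± 0.168. RTN2 differed between experiments: it was 378 and 380 in LM, against 108 and 151 without drug, but 23.6 and 33.8 in CL, against 33.5. DDR2 was under 1.5-fold (0.48 ± 0.172, adjusted p = 0.0364), and in CL its LiCl wells (38.3 and 47.2) lay below the drug-free well (58.97). PNC1 (0.21 ± 0.0984), HOR7 (0.03 ± 0.0776) and SPG4 (-0.24 ± 0.416) were not called. SPG4 differed in direction between experiments: it was 18.1 and 24.1 with LiCl in LM, against 63.3 and 167 without drug, but 8.42 and 10.7 in CL, against 4.84, and 9.93 to 49.3 in LR, against 11.2. Without the experiment term HSP12 and MSC1 were no longer called (0.86, adjusted p = 0.0502, and 0.58, adjusted p = 0.0256).

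Under cycloheximide 5 of the 10 rose, against 2.03% of all features called higher, with a median over the 10 of 0.71 against -0.05 over all features. HSP12 was 454 to 696 in the 7 cycloheximide wells of CR, against 318 in the drug-free well, 659 in the well of CM, against 456 and 485, and 230 and 334 in CL, against 63.7. Every cycloheximide well thus lay above the drug-free wells of its experiment, and the fitted change was 1.04 ± 0.302 (adjusted p = 0.0232). DDR2 rose by 0.94 ± 0.181 (adjusted p = 0.00022), with 79.6 to 336 in cycloheximide wells, against 58.97 to 151 in drug-free wells. Within experiments its mean change was 0.455 in CR, which held 7 of the 10 wells, 0.71 in CM and 0.98 in CL. The CR change was under 1.5-fold. SPI1 rose by 0.86 ± 0.126, with 253 to 373 in cycloheximide wells and 138 to 263 in drug-free wells. RTN2 rose by 0.88 ± 0.257 and YGP1 by 0.74 ± 0.145. Within CR, CM and CL the mean changes were 0.68, 0.71 and 0.547 for RTN2, each below the fitted value. For YGP1 they were 0.46, 1.11 and 0.195, under 1.5-fold in CR and CL. CTT1 (0.68 ± 0.302, adjusted p = 0.195), SPG4 (0.51 ± 0.437), MSC1 (0.42 ± 0.176), HOR7 (0.12 ± 0.0814) and PNC1 (0.01 ± 0.103) were not called.

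2 of the cycloheximide libraries were shallow, and without the 8 shallow libraries HSP12 (0.91, adjusted p = 0.0831) and RTN2 (0.65, adjusted p = 0.162) were no longer called. Those 2 calls also ended without the experiment term (0.62 and 0.39), and YGP1 fell under 1.5-fold with array quality weights (0.48).

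Under myriocin 3 of the 10 rose, against 4.81% of all features called higher, with a median over the 10 of 0.34 against -0.02. SPI1 rose by 0.97 ± 0.114 (adjusted p = 1.99e-11) and was 288 to 539 in the 11 myriocin wells, against 138 to 263 in drug-free wells, with no overlap. YGP1 rose by 0.96 ± 0.13, with 188.4 to 303 in myriocin wells and 69.5 to 137 in drug-free wells, again with no overlap. HSP12 rose by 0.77 ± 0.272 (adjusted p = 0.0328). Its experiments differed: the myriocin well of CM was at 1105, against 456 and 485 without drug, whereas the 7 wells of LM ranged from 770 to 1380, around the drug-free 909 and 1014. CTT1 (0.39 ± 0.272), DDR2 (0.37 ± 0.163), RTN2 (0.31 ± 0.231), HOR7 (0.16 ± 0.0733), PNC1 (0.00 ± 0.093), MSC1 (-0.04 ± 0.158) and SPG4 (-0.41 ± 0.393) were not called. SPG4 was 11.1 to 61.2 with myriocin in LM, against 63.3 and 167 without drug, whereas in CM it was 24.1, against 9.88 and 15.2, and in MR 9.81 to 24.0, against 12.47. Its mean log2 difference was -1.996 in LM, 0.92 in CM and 0.31 in MR. With final OD600 as a further term CTT1 (0.96, adjusted p = 0.00185) and RTN2 (0.76, adjusted p = 0.00556) were called as well. The summed MATa markers were also low under myriocin, 239 to 465, against 354 to 623 in drug-free wells, and their part in the result was not tested.

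Under rapamycin the stress genes split. SPG4 rose by 1.98 ± 0.406 (adjusted p = 0.000175), with 70.8 and 134 in CR, against 12.97 without drug, 40.5 to 110 in LR, against 11.2, and 37.8 to 139 in MR, against 12.47. Every rapamycin well of these 3 experiments lay above its drug-free well, and the within-experiment changes were 2.53 to 2.82 log2 units. DDR2 rose by 1.23 ± 0.168 (adjusted p = 7.66e-09), with 131 to 278 in rapamycin wells, against 58.97 to 151 in drug-free wells. SPI1 rose by 0.68 ± 0.118 (adjusted p = 7.91e-06), with 156 to 424 in rapamycin wells and 138 to 263 in drug-free wells. These were 3 of the 10 genes, against 3.41% of all features called higher, with a median over the 10 of 0.36 against -0.05.

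HSP12 was not called under rapamycin (0.23 ± 0.281), with 271 and 378 in CR, against 318, 93.1 to 259 in MR, against 180, and 268 to 477 in LR, against 137. CTT1 was at -0.01 ± 0.281, with an interval of -0.57 to 0.54. Its experiments differed in direction: it lay at 59.7 to 135 in MR, against 115 without drug, at 153 and 170 in CR, against 173.569, and at 114 to 259 in LR, against 101, where all 4 rapamycin wells were above the drug-free well. RTN2 (0.28 ± 0.239) and MSC1 (0.41 ± 0.164) were not called either. YGP1 (0.51 ± 0.135), PNC1 (0.31 ± 0.0961, adjusted p = 0.0201) and HOR7 (0.26 ± 0.0757, adjusted p = 0.0116) passed the p threshold under 1.5-fold. DDR2 and its paralog HOR7 thus stood at 1.23 and 0.26. The SPI1 call rested on the 1.5-fold limit: it was 0.50 with all 11 drug-free wells, 0.55 without the experiment term, 0.57 without shallow libraries and 0.58 with array quality weights, each under that limit.

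SPI1 was called under all 4 drugs. HSP12 and YGP1 were called under 3 drugs, RTN2 and DDR2 under 2, CTT1, MSC1 and SPG4 under 1, and HOR7 and PNC1 under none. The 4 comparisons share their drug-free wells. The intervals of HOR7 reached from -0.12 to 0.41 over the 4 drugs and those of PNC1 from -0.19 to 0.49, so fitted changes of over 1.5-fold across experiments lie outside them. Within single experiments HOR7 changed by 0.62 under rapamycin in LR and by 0.66 in the 1 myriocin well of CM, above 1.5-fold. Its other within-experiment changes lay between -0.163 and 0.428.

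**Figure D3:**
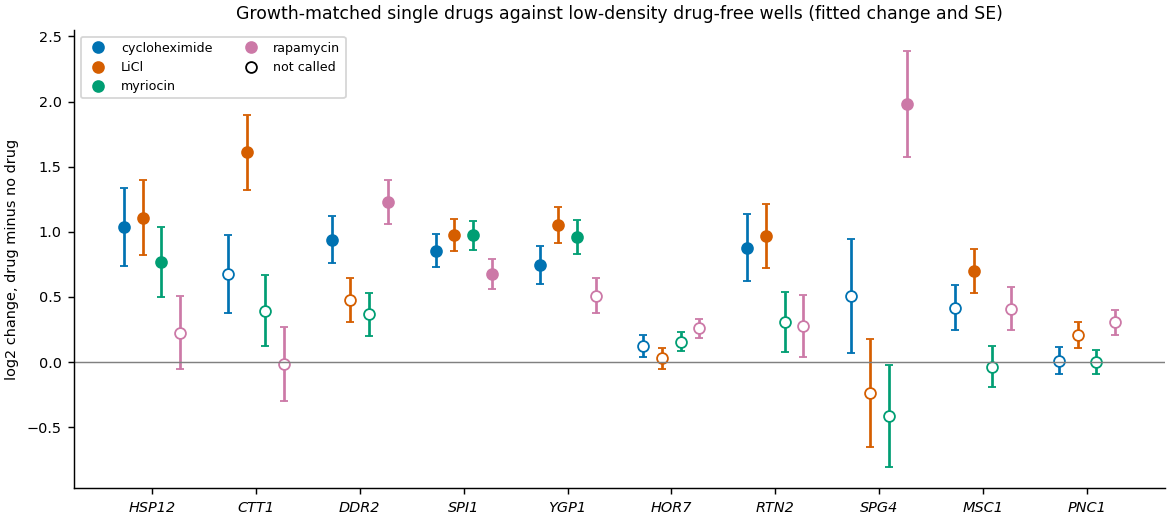
Fitted log2 change with its SE of each gene for growth-matched wells of each drug against the low-density drug-free wells, with filled symbols for calls and open symbols for genes that were not called. SPI1 is filled for all 4 drugs, SPG4 for rapamycin alone (1.98), CTT1 for LiCl alone (1.61), and HOR7 and PNC1 for none.

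Whether the drugs differed from each other was tested in 6 contrasts. Rapamycin and LiCl differed in 5 of the 10 genes, against 13.1% of features called: relative to LiCl wells, rapamycin wells had higher SPG4 (2.22 ± 0.382, adjusted p = 1.92e-06) and DDR2 (0.75 ± 0.158), and lower CTT1 (-1.62 ± 0.264, adjusted p = 5.03e-07), HSP12 (-0.88 ± 0.264) and RTN2 (-0.69 ± 0.225). In LR, which held both drugs, CTT1 was 114 to 259 in the 4 rapamycin wells, against 398 to 761 in the 5 LiCl wells, with no overlap. SPG4 in the same experiment was 40.5 to 110 with rapamycin, against 9.93 to 49.3 with LiCl, so the ranges met at their ends. Rapamycin and myriocin differed in SPG4 (2.40 ± 0.396) and DDR2 (0.86 ± 0.164), 2 of 10 against 10.9% of features, and DDR2 was under 1.5-fold without the experiment term (0.45). Rapamycin and cycloheximide differed in SPG4 (1.47 ± 0.43, adjusted p = 0.0111), 1 of 10 against 6.08%. HSP12 was at -0.81 ± 0.297 there (adjusted p = 0.0557), and it was called without shallow libraries (-0.85, adjusted p = 0.0497).

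Myriocin wells had lower CTT1 (-1.22 ± 0.287), MSC1 (-0.74 ± 0.167) and RTN2 (-0.66 ± 0.245) than LiCl wells, 3 of 10 against 15.3% of features. In LM, which held both, CTT1 was 243 to 490 in the 7 myriocin wells, against 1032 and 1040 in the 2 LiCl wells. The MSC1 and RTN2 differences were no longer called without the experiment term (-0.32 and -0.03). LiCl wells had higher CTT1 than cycloheximide wells (0.94 ± 0.318, adjusted p = 0.0337), 1 of 10 against 7.64%. Myriocin and cycloheximide differed in none of the 10 by limma, against 5.02%, and 3 of the 10 had an unadjusted p under 0.05, with DDR2 the closest to a call (-0.57 ± 0.2, adjusted p = 0.0525). The interval of their difference was -0.93 to 0.39 for HSP12, -0.94 to 0.38 for CTT1 and -0.16 to 0.39 for SPI1.

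Dose gradients within 1 experiment showed how the genes followed growth inhibition. Slopes were fitted in the lower set, where final OD600 was 0.425 to 0.760 for LiCl, 0.570 to 0.799 for cycloheximide, 0.412 to 0.582 for myriocin and 0.570 to 0.758 for rapamycin, and are scaled to a relative growth rate of 0.5. In the higher set final OD600 was 0.720 to 1.475 for LiCl, 0.676 to 1.436 for cycloheximide, 0.482 to 1.066 for myriocin and 0.596 to 1.992 for rapamycin. It was lower in slow wells than in fast wells there, so growth inhibition and density cannot be told apart in higher-set slopes. Along the 13 wells of the LiCl gradient 7 of the 10 rose, against 10.6% of features. CTT1 was 761, 398 and 424 in the 3 slowest wells, against 178.7, 138 and 101 in the 3 fastest, a slope of 2.16 ± 0.169 (adjusted p = 3.04e-09). HSP12 was 1094, 447 and 476 in the slowest wells, against 262, 232 and 137 in the fastest, a slope of 1.85 ± 0.237. RTN2 (1.495 ± 0.274), MSC1 (1.01 ± 0.181), SPI1 (0.90 ± 0.134), DDR2 (0.87 ± 0.208) and YGP1 (0.80 ± 0.141) completed the 7. The slowest well was the highest of the 13 for CTT1 and HSP12, and it was also the densest, with a final OD600 of 0.7595 against 0.425 to 0.6315 in the others. Without it 6 of the 10 were called: DDR2 was at 0.43 (adjusted p = 0.0729), RTN2 at 0.86, MSC1 at 0.62, HSP12 at 1.36 and CTT1 at 1.90. With both sets and terms for set and OD600, 7 of the 10 were called. In the higher set, CTT1 alone was called and HSP12 had a slope of 0.94 (adjusted p = 0.09), and YGP1 was under 1.5-fold with both sets together (0.54). The difference between the slopes of the sets was called by limma for none of the 10 under LiCl, against 0.0997% of features, and 4 had an unadjusted p under 0.05.

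Along 11 wells of the cycloheximide gradient HSP12 rose (1.00 ± 0.167, adjusted p = 0.00444), with 454, 655 and 565 in the 3 slowest wells and 278, 258 and 318 in the 3 fastest. It was 1 of 10, against 1.85% of features. CTT1 (0.46 ± 0.117, adjusted p = 0.0444) and SPI1 (0.51 ± 0.109, adjusted p = 0.0199) passed the p threshold under 1.5-fold. Along 13 wells of the rapamycin gradient SPG4 rose (2.29 ± 0.286, adjusted p = 5.1e-06), with 139, 85.1 and 37.8 in the slowest wells, against 25.2, 7.82 and 22.5 in the fastest. DDR2 rose as well (1.11 ± 0.191), with 245, 231 and 131 in the slowest wells, against 114, 101 and 84.7 in the fastest. CTT1 fell (-0.60 ± 0.206, adjusted p = 0.044), with 69.2, 97.6 and 59.7 in the slowest, against 169, 115 and 117 in the fastest. These were 3 of 10 genes, against 8.71% of features. The CTT1 call ended when drug-free wells were left out (-0.61, adjusted p = 0.0547), with no filter on low values (adjusted p = 0.112) or with a pseudocount of 10 (-0.54). In the higher set SPG4 had a slope of 0.79 (adjusted p = 0.0664) and DDR2 of 0.42 (adjusted p = 0.0737), while RTN2 (-0.92, adjusted p = 0.000258) and HSP12 (-0.78, adjusted p = 0.0308) were called with a falling slope. Density changed along these higher-set wells as well, as given above.

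Along 11 wells of the myriocin gradient at a relative growth of at least 0.35, none of the 10 was called by limma, against 3.91% of features, and 2 had an unadjusted p under 0.05. HSP12 had a slope of 0.01 ± 0.149 and SPG4 of -1.22 ± 0.6 (adjusted p = 0.245). SPG4 was called in the higher set (-2.18, adjusted p = 0.0213) and with both sets together (-1.51, adjusted p = 0.0399), and RTN2 was called in the higher set (-1.12, adjusted p = 0.0453). In 5 wells of the same experiment with myriocin at 0.579 to 0.962 µg/ml growth was slower than that, at 0.0358 to 0.331 of the drug-free rate. HSP12 ranged there from 671 to 927 with a median of 747, below the median of 1014 in the 7 growth-matched myriocin wells, and the ranges overlapped. At the same myriocin doses with LiCl added, 14 wells grew at 0.434 to 0.522 and HSP12 ranged from 1011 to 2506 with a median of 1559, with no overlap with the 5 wells of myriocin alone. CTT1 was 409 to 1032 in those mixtures, against 191.975 to 288 in the 5 wells of myriocin alone, and SPI1 was 543 to 873, against 237 to 369.

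**Figure D4:**
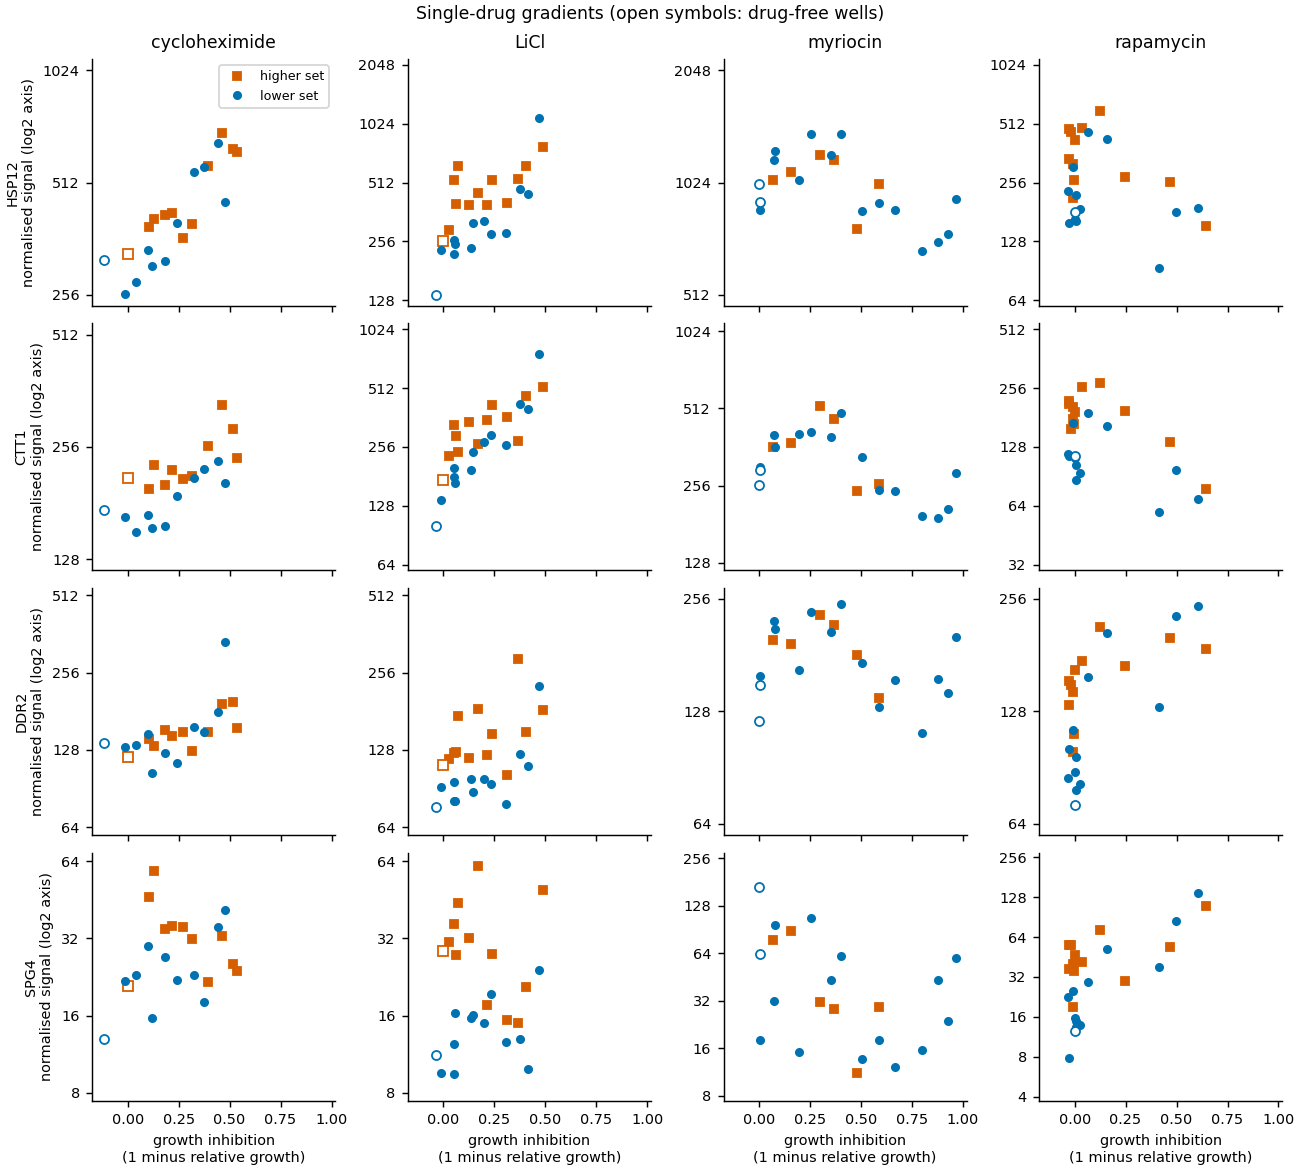
Normalised signal (log2 axis) of HSP12, CTT1, DDR2 and SPG4 against growth inhibition in the experiment that holds each drug's gradient, with higher-set wells as squares, lower-set wells as circles and drug-free wells as open symbols. CTT1 and HSP12 climb along the LiCl gradient, SPG4 and DDR2 along the rapamycin gradient, and HSP12 lies between 671 and 927 in the myriocin wells that grow slowest.

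Mixtures were compared with the low-density drug-free wells in the same fit. With LiCl in the mixture, HSP12, CTT1, DDR2, SPI1, YGP1, RTN2 and MSC1 rose in all 3 pairs: 7 of 10 genes with cycloheximide against 3.67% of features called higher, 7 with myriocin against 7.16%, and 7 with rapamycin against 2.61%. In mixtures of LiCl with myriocin HSP12 ranged from 856 to 2952 with a median of 1903 over 26 wells, and 24 of them exceeded both drug-free wells of the experiment (909 and 1014). The fitted change was 1.37 ± 0.311 (adjusted p = 0.000411). In mixtures of cycloheximide with LiCl HSP12 ranged from 193.4 to 534 over 22 wells, all above the drug-free well at 63.7 (1.63 ± 0.355). In mixtures of LiCl with rapamycin it ranged from 225 to 1116 over 18 wells, all above the drug-free well at 137 (1.10 ± 0.34). CTT1 rose by 1.503 ± 0.355, 1.51 ± 0.312 and 1.05 ± 0.34 with cycloheximide, myriocin and rapamycin as the partner of LiCl. With all 11 drug-free wells the MSC1 and DDR2 changes of cycloheximide with LiCl were 0.50 and 0.54, under 1.5-fold. Against the 1 low-density drug-free well of CL itself, mean changes in these mixtures were 0.39 for RTN2, 0.42 for DDR2 and 0.58 for YGP1, under 1.5-fold. They were 0.64 for MSC1, 1.06 for SPI1, 1.42 for CTT1 and 2.47 for HSP12.

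Without LiCl fewer of the genes were called. Mixtures of myriocin with rapamycin had higher DDR2 (1.09 ± 0.206), SPI1 (1.13 ± 0.144) and YGP1 (1.12 ± 0.165), 3 of 10 against 2.15% of features called higher. Their DDR2 ranged from 123 to 236 over 16 wells, all above the drug-free well at 71.7. Against the 1 low-density drug-free well of MR itself, mean changes were 1.26 for DDR2, 1.00 for SPI1 and 0.62 for YGP1. Mixtures of cycloheximide with myriocin had higher SPI1 (0.91 ± 0.152) and YGP1 (0.91 ± 0.174), 2 of 10 against 4.91%. Mixtures of cycloheximide with rapamycin had higher DDR2 (0.65 ± 0.206, adjusted p = 0.033), 1 of 10 against 3.35%, and that change was 0.52 and not called with all 11 drug-free wells. Against the 1 low-density drug-free well of CR itself the mean DDR2 change was 0.26, under 1.5-fold. HSP12 was at 0.23 ± 0.343 and CTT1 at 0.05 ± 0.343 in those mixtures. SPG4 was not called in any mixture against the drug-free wells. It was at 1.3 ± 0.492 with LiCl and rapamycin and at 1.21 ± 0.498 with myriocin and rapamycin, and both were called without the set term (1.57, adjusted p = 0.00558, and 1.48, adjusted p = 0.0137). The first was also called with all 11 drug-free wells (1.18, adjusted p = 0.038). Mixtures with rapamycin were also set against the 1 low-density drug-free well of their own experiment. SPG4 was above it in 19 of 19 wells with cycloheximide, 18 of 18 with LiCl and 15 of 16 with myriocin. The mean changes were 1.10, 2.25 and 1.93 in that order. In LiCl with myriocin 0 of 26 wells exceeded both drug-free wells of LM.

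Against the mean of the growth-matched single drugs, 1 call was made over the 6 mixtures. RTN2 was higher in LiCl with myriocin (0.70 ± 0.19, adjusted p = 0.00976), 1 of 10 genes against 2.19% of features. In that experiment RTN2 averaged 352 ± 122 in the 26 mixture wells (SD), 379 in the 2 LiCl wells and 156 in the 7 myriocin wells, so the mixture mean lay between those of its drugs. SPI1 in the same mixtures averaged 731 ± 122, above 538 with LiCl and 459 with myriocin, and 23 of 26 mixture wells exceeded every single-drug well of the experiment (0.58 ± 0.0933, adjusted p = 1.29e-06, under 1.5-fold). HSP12 exceeded every single-drug well in 19 of 26 (0.43 ± 0.223, adjusted p = 0.27). None of the 10 was called by limma in the other 5 pairs, where the share of features called was 0.538% for cycloheximide plus LiCl, 1.34% for cycloheximide plus myriocin, 1.89% for cycloheximide plus rapamycin, 0.0798% for LiCl plus rapamycin and 0% for myriocin plus rapamycin. The numbers of the 10 with an unadjusted p under 0.05 were 2, 1, 7, 2 and 3 in the same order. In cycloheximide with rapamycin MSC1 (-0.47 ± 0.133), DDR2 (-0.43 ± 0.137) and HOR7 (-0.26 ± 0.0618) had an adjusted p below 0.05 under 1.5-fold.

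Within a mixture the stress genes changed with the dose share, which is the weight of the second drug between 0 and 1 after each dose is divided by its median growth-matched dose. Observed shares ran from 0.11 to 0.87, and slopes are given per unit of share. The slopes have no term for growth or final OD600. In LiCl with myriocin OD600 ran from 0.473 to 0.740 and was mostly higher in LiCl-rich wells. In myriocin with rapamycin relative growth ran from 0.397 to 0.658 and was mostly higher in myriocin-rich wells. The part of growth and density in the slopes was not tested. In cycloheximide with rapamycin, HSP12 averaged 188.4 ± 76.8 in the 6 wells with the highest rapamycin share, against 583 ± 57.9 in the 6 with the lowest (SD), with no overlap. Its slope was -3.26 ± 0.375 (adjusted p = 9.66e-08). CTT1 fell alongside (-2.46 ± 0.272), at 77.8 to 131 in the wells of highest share. SPG4 rose (3.38 ± 0.398, adjusted p = 1.5e-07), at 72.1 on average in the wells of highest share, against 17.5 in those of lowest share. RTN2 (-1.12 ± 0.319), SPI1 (-0.93 ± 0.167), YGP1 (-0.76 ± 0.17) and MSC1 (-0.63 ± 0.213) also fell, which makes 7 of 10 genes called against 19.2% of features.

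LiCl with rapamycin gave the same directions for the leading genes. CTT1 averaged 172 in the 6 wells with the highest rapamycin share, against 650 in the 6 with the lowest, a slope of -3.58 ± 0.29 (adjusted p = 1.27e-10). HSP12 fell (-2.28 ± 0.31), as did RTN2 (-2.07 ± 0.325) and MSC1 (-0.84 ± 0.226), while SPG4 rose (3.07 ± 0.349) to 95.5 on average at the highest share, against 30.2 at the lowest. These were 5 of 10 genes, against 18.7% of features. In myriocin with rapamycin SPG4 (2.50 ± 0.466) and DDR2 (0.90 ± 0.155) rose with the rapamycin share, and CTT1 (-1.79 ± 0.332), HSP12 (-1.65 ± 0.355), SPI1 (-0.79 ± 0.148) and YGP1 (-0.61 ± 0.203) fell, 6 of 10 against 18.8%.

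In LiCl with myriocin 8 of the 10 fell as the myriocin share grew, against 16.5% of features. CTT1 averaged 465 in the 8 wells with the highest myriocin share, against 1110 in the 8 with the lowest (-2.04 ± 0.245). HSP12 averaged 1196 and 2378 in those wells of highest and lowest share (-1.51 ± 0.245). MSC1 (-1.86 ± 0.213), RTN2 (-1.82 ± 0.236), SPG4 (-1.82 ± 0.581), DDR2 (-1.08 ± 0.203), PNC1 (-0.93 ± 0.118) and SPI1 (-0.85 ± 0.136) completed the 8. It was the only one of the 6 mixtures in which PNC1, the nicotinamidase gene, was called. It averaged 599 in the wells of highest share, against 886 in those of lowest share, with no overlap. HOR7 was called in no mixture.

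In cycloheximide with LiCl, YGP1 (1.05 ± 0.124), CTT1 (0.86 ± 0.176) and HSP12 (0.68 ± 0.227) rose with the LiCl share while DDR2 (-0.78 ± 0.197) and SPG4 (-1.05 ± 0.336) fell, 5 of 10 against 17.2% of features. HSP12 peaked inside the range, with its highest well (534) at an intermediate share. In cycloheximide with myriocin none of the 10 was called by limma, against 6.7% of features, and 3 had an unadjusted p under 0.05: SPI1 (0.53 ± 0.135), YGP1 (0.56 ± 0.179) and HOR7 (0.37 ± 0.107), all under 1.5-fold. With no filter on low values, 4 dose-share calls missed the p threshold: HSP12 in cycloheximide with LiCl (adjusted p = 0.075), MSC1 in cycloheximide with rapamycin (0.0663), SPG4 in LiCl with myriocin (0.0543) and YGP1 in myriocin with rapamycin (0.0632). With a pseudocount of 10 the SPG4 slope in cycloheximide with LiCl was -0.55, under 1.5-fold.

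**Figure D5:**
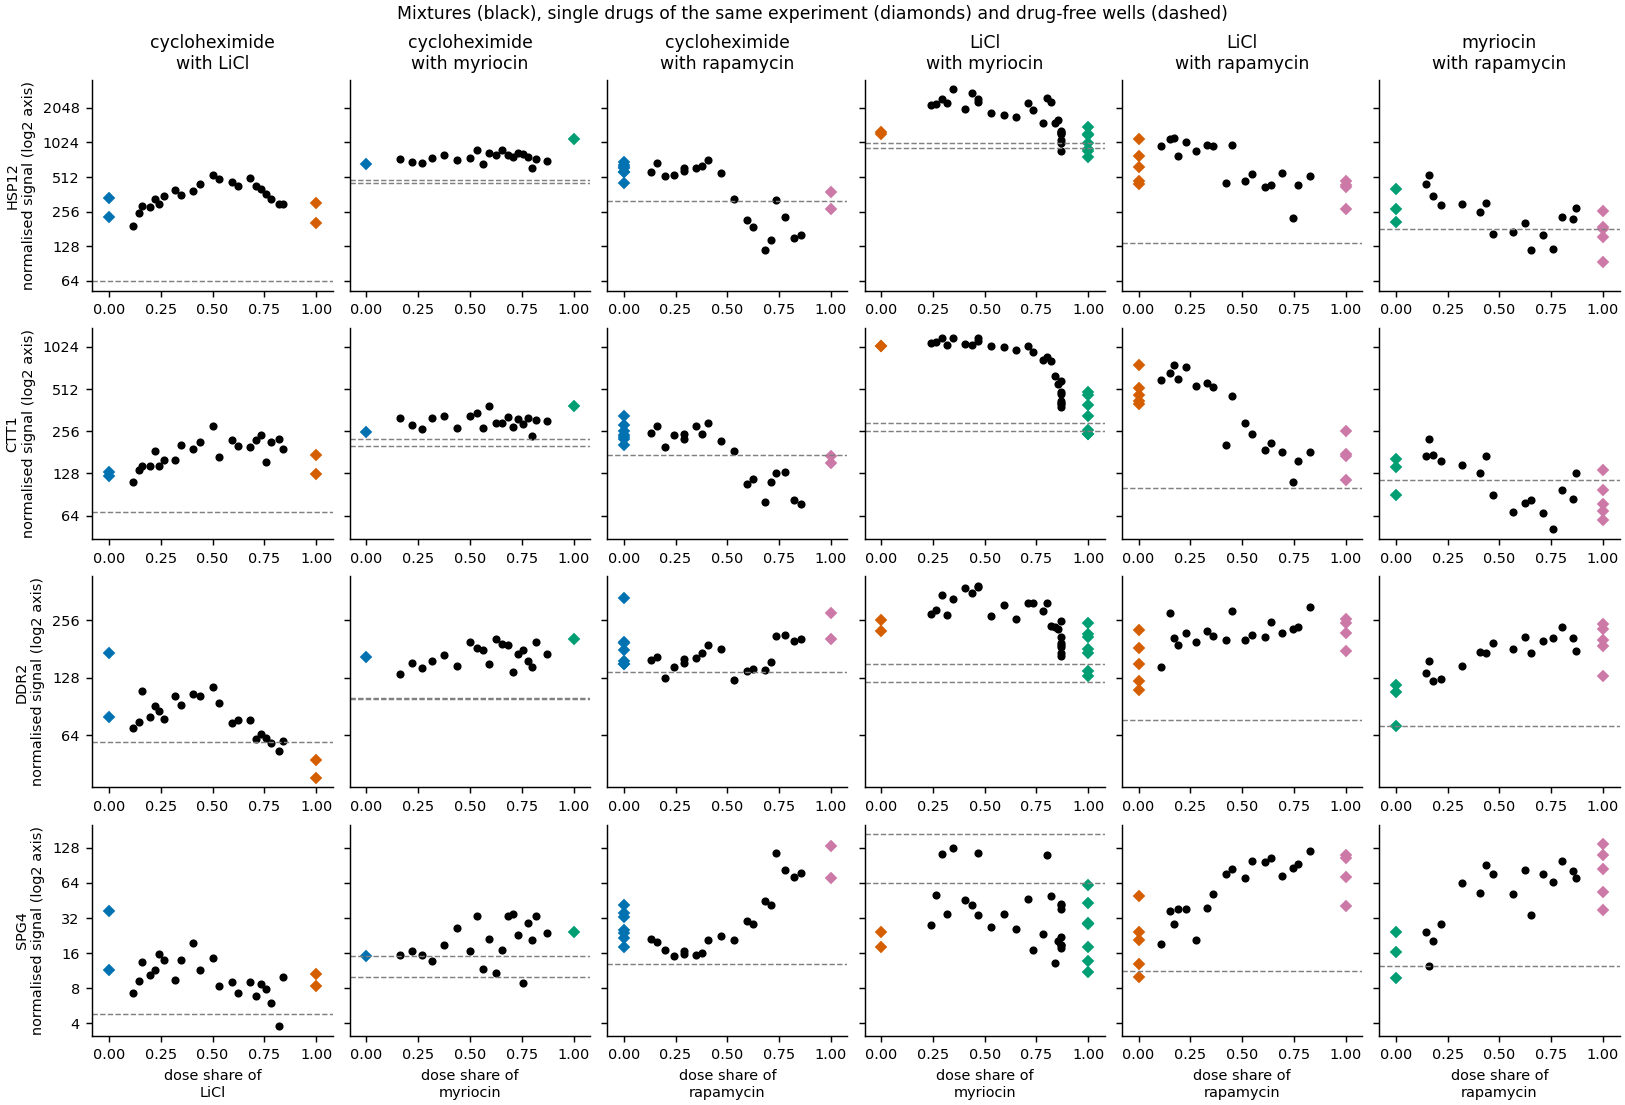
Normalised signal (log2 axis) of HSP12, CTT1, DDR2 and SPG4 in mixture wells (black circles) against the dose share of the second drug, with growth-matched single-drug wells of the same experiment at shares of 0 and 1 (diamonds) and low-density drug-free wells as dashed lines. As the rapamycin share grows, HSP12 and CTT1 go down and SPG4 goes up in all 3 mixtures with rapamycin, with HSP12 at 188.4 on average in the wells of highest share in cycloheximide with rapamycin.

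Other genes of the pathway were read from a list of 48 further Msn2/Msn4 targets, of which 47 were tested. Higher and lower calls were 11 and 0 under LiCl, 5 and 0 under cycloheximide, 6 and 1 under myriocin, and 12 and 1 under rapamycin, with list medians of 0.29, 0.25, -0.03 and 0.32. Of all features 6.7%, 2.03%, 4.81% and 3.41% were called higher under these drugs, in the same order. NQM1, a transaldolase paralog, rose under all 4 drugs (1.84 ± 0.204, 1.36 ± 0.214, 1.35 ± 0.193 and 1.29 ± 0.199 in that order). ALD3, a cytosolic aldehyde dehydrogenase gene, had the largest change on the list under LiCl (2.23 ± 0.323), and XBP1, a transcriptional repressor, under rapamycin (1.29 ± 0.263). In the density pairs 4 of the 47 were higher in the denser well, led by YNL194C (0.84 ± 0.115), SSA4 (0.80 ± 0.105) and ALD3 (0.78 ± 0.0876). There 2.21% of all features were called in either direction. In LiCl with myriocin 35 of the 47 fell as the myriocin share grew, and 0 rose, against 16.5% of features called in either direction.

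Of 17 regulators tested, from the kinase A pathway to the factors themselves, 3 fell under myriocin: MSN4 (-1.14 ± 0.247), the adenylate cyclase gene CYR1 (-0.80 ± 0.135) and the Ras GTPase-activating gene IRA2 (-0.62 ± 0.126). The share of all features called lower under myriocin is not given here, so this count has no background beside it. The kinase gene YAK1 rose under LiCl (0.62 ± 0.135) and the phosphodiesterase gene PDE1 under rapamycin (0.75 ± 0.145), and none was called under cycloheximide by limma, where 2 had an unadjusted p under 0.05. Of all features 6.7% were called higher under LiCl and 3.41% under rapamycin, so 1 of 17 regulators under LiCl is close to that share. MSN2 had a mean of 9.03, below the mean of 10 required for a test. Among genes repressed by glucose, 2 of 9 tested rose under LiCl (HXT5, 1.90 ± 0.371, and SUC2, 0.85 ± 0.267) and 2 under rapamycin (HXT5, 1.02 ± 0.362, and CAT2, 0.95 ± 0.224). The shares of all features called higher, 6.7% and 3.41%, stand beside these counts too. The next values are of the glucose-repressed genes. Their summed level over 14 genes was 266 to 1281 in LiCl wells and 259 to 718 in rapamycin wells, against 247 to 1063 in drug-free wells, with SFC1 at the lowest value in 55 libraries. In LiCl with myriocin mixtures the sum was 742 to 1892, and its part in the results above was not tested.

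The genes differed in how closely they followed each other. The Pearson correlation of each gene with the mean standardised log2 level of the other 9 over 238 libraries was highest for MSC1 (0.938) and RTN2 (0.919) and lowest for SPG4 (0.427). With experiment and set means removed, SPG4 was at 0.22, YGP1 at 0.456 and MSC1 at 0.827. The 5 features outside the set whose levels were most like the mean of the 10 were RTC3 (0.956), SOL4 (0.945), FMP16 (0.943), OM45 (0.936) and YMR090W (0.929). SOL4, FMP16 and OM45 were also on the list of further Msn2/Msn4 targets. The libraries share experiments and densities, so these correlations describe the wells measured and carry no test.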

How the data were processed

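The members and gene lists were chosen with earlier results of these data known. The authors deposited 1 table of normalised signal for 6717 features in 238 libraries. Its columns share nearly 1 distribution (totals 595181 to 596851), so it was read as quantile-normalised; the method is not given in the sources used here. TopHat, UMI-tools, featureCounts and build R64 are named per the submitters' processing notes. Depth was estimated from ties among low values, covers counting error only, and limits low genes such as SPG4. limma 3.58.1 (R 4.3.3) was run on log2(value + 1) with a trend over 5015 features with a mean of at least 10, and was tested on simulated data. Named genes outside the 10 are the leading called genes of each list. Pairs were matched by experiment and dose. No 2 libraries held identical values (highest correlation 0.9891). Alternatives were another pseudocount, no filter, other model terms, other drug-free wells, leaving out shallow libraries, experiments or single wells, and array quality weights.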

Additional observations from a re-analysis of the deposited data

Results flagged for a closer look

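RTN2 in 1 growth-matched cycloheximide well of experiment CL stood at 33.8, far below the other 9 wells of its group. It was the only such well in 30 sets of group and gene checked, and chance alone marks about 1 in 20. CL also has the lowest fitted RTN2 level of the 6 experiments.

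SPG4 differed between the kinds of well pair, by 0.91 on the log2 scale, higher in pairs that differ in density than in pairs of like density, by a limma test of the difference itself. The kinds of pair also differ in growth rate and dose.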

How the results depend on the processing

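Of the values recomputed for single genes, 1514 kept direction and side of the threshold, 39 gained a call, 40 lost one and 7 reversed; the cause was not tested. All reversals came without the experiment term, in mixtures against their single drugs: RTN2 (-1.25), HSP12 (-0.71), CTT1 (-0.81), MSC1 (-0.87) and DDR2 (-0.92) in cycloheximide with LiCl, and HSP12 (-0.94) and CTT1 (-0.73) in myriocin with rapamycin. Without that term the number of the 10 called was 6 in cycloheximide with LiCl, 6 in LiCl with myriocin and 2 in myriocin with rapamycin. It was 3 for cycloheximide against no drug, 5 for myriocin against no drug, 3 for rapamycin against cycloheximide, 1 for myriocin against LiCl and 4 for rapamycin against myriocin. Without shallow libraries it was 3 for cycloheximide against no drug and 2 for rapamycin against cycloheximide. With final OD600 as a term it was 5 for myriocin. With all 11 drug-free wells it was 0 for cycloheximide with rapamycin. Experiment as a term gave 1 for drug-free density, and leaving out each high-density well in turn gave 0 to 0. Cycloheximide slopes gave 2 with both sets, with both sets and OD600, and without drug-free wells. The higher set gave 1 for LiCl slopes and 2 for myriocin slopes, and both sets gave 1 for myriocin. The LiCl slopes without the slowest well (6 called) were added after seeing the data. In pairs that differ in density the number was 1 with a pseudocount of 10, 4 without CR, 4 without LM, 1 without LR and 1 without MR. The difference between kinds of pair gave 2 without CL, 4 without CR and 0 without MR. Shares over all features are given for the main settings only, so the counts in other settings have none beside them. No paired analysis was possible because the labels give no replicate numbers to serve as a block, other than for the wells matched by experiment and dose.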
